A study of Mus musculus with 4 samples.

Results

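The coronal suture (COR) and the tibial growth plate (GP) gave the pair of libraries nearest to each other among the 4 CD51+;CD200+ libraries of the series, and this pair is described here gene by gene. The genes were selected on 1 criterion, FPKM of 1 or more in the COR or the GP library, where FPKM is the fragment count of a gene scaled to its transcript length and to the size of the library. Of 23946 symbols listed, 12206 met it, 10982 of them with FPKM of 1 or more in both libraries, 420 through COR alone and 804 through GP alone. *Sparc*, *Col1a1*, *Col1a2*, and *Col3a1* were left out, because all 4 are listed at 0 in COR while each is at 533 FPKM or more in PF and SAG, and *Col1a2* is at 0 in GP as well. Each gene was compared by its log2 ratio, the log2 of (COR FPKM + 1) over (GP FPKM + 1), which is positive where COR is higher and understates differences of genes with low values. A gene was counted as apart at 3-fold or more on this scale, the fold threshold of the study. COR and GP were chosen as a pair because their values lie close, and each has 1 library, so all values of this pair are a description and no test was made.

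All cells came from wild-type CD-1 mice on postnatal day 3. They were sorted by FACS, with a second sort for purity, as positive for CD51, the integrin subunit encoded by *Itgav*, and for CD200, a membrane glycoprotein, and as negative for CD105, 6C3, Tie2, CD45, Ter119, Thy1.1, and Thy1.2. COR cells were taken from the whole suture complex. It held the osteogenic fronts at the bone edges, the mesenchyme between them, the dura mater below, and the periosteum above. GP cells came from the tibia, and the study used them as the reference for the sutures. The other libraries, from the posterior frontal suture (PF) and the sagittal suture (SAG) of mice of the same strain, genotype, and age, are given where they place the pair. The sorted cells came from many mice, with 1 library for each tissue.

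Sutures are fibrous joints between the flat bones of the skull, and the bone at their edges forms directly from mesenchyme. The growth plate is a band of cartilage in which chondrocytes divide, enlarge into hypertrophic cells, and are replaced by bone. Bones of the limb carry a HOX code that sets the identity of each segment, whereas most of the skeleton of the head forms without HOX expression and relies on other homeobox, forkhead, and basic helix-loop-helix factors.

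The sorting antigens were checked first. *Cd200* was at 62.6 FPKM in COR cells and 57.1 in GP cells, and *Itgav* at 14.99 in COR and 13.5 in GP. Of the antigens used for exclusion, *Ptprc* (CD45) was at 0.00523 in COR and 0.0574 in GP. *Tek* (Tie2) was at 0.398 in COR and 0.0317 in GP, and *Thy1* was at 0.101 in COR and 0.435 in GP. *Eng* (CD105) was at 1.07 in COR and 0.679 in GP, and *Enpep* (6C3) at 3.74 in COR and 1.39 in GP. The 2 positive antigens were thus at like levels in both libraries, and these 5 excluded ones were at or below 3.74 FPKM. The number of genes at or above 1 FPKM was 11402 in COR, 11786 in GP, 11822 in PF, and 12259 in SAG. Fragments per library are not given, so their ratio was estimated from 734 genes above 0 and under 0.15 FPKM in both libraries. The most common COR to GP ratio among them put COR at about 105% of the fragments of GP. This holds only if each library was scaled to its own total, and the scaling used is not given. The interval behind this value held 34 of the 734 genes, so the estimate is rough. Short RNA genes often differed between the libraries: 52 of the 97 compared were 3-fold or more apart, against 4.37% of all genes compared. Of the 44 genes listed at 0 in one library and at 5 FPKM or more in the other, 41 were short RNA genes. With 1 library per tissue, uneven measurement and a difference of tissue cannot be told apart here. In bulk libraries, fewer cells of a type and less RNA per cell cannot be told apart.

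COR-CD51+;CD200+ and GP-CD51+;CD200+ cells held largely the same transcripts at like levels. The median log2 ratio was 0.02, and the 5th and 95th percentiles were -1.23 and 0.78. Both libraries had 5 FPKM or more for 7555 genes, of which 6598 (87.3%) lay within 1.5-fold and 7226 (95.6%) within 2-fold. Of the 100 genes with the highest FPKM in each library, 80 were in both lists, 80% of each, and of the highest 500, 437 were in both, 87.4% of each. Across all 12206 genes, 534 were 3-fold or more apart (4.37%), of which 146 were higher in COR (1.20%) and 388 higher in GP (3.18%). Genes higher in GP thus made up 72.7% of those apart. The count rests partly on low values: with 0.1 in place of 1 added to each FPKM it was 1006, and among genes with 1 FPKM or more in both libraries it was 275. The share apart was 3.30% where the higher value was 1 to 5 FPKM, 4.76% at 5 to 50, and 5.02% above 50. The 1 added to each FPKM holds low genes back from 3-fold, so these shares cannot show whether low genes differ less. Of the 534 genes, 77 were compared through COR alone and 182 through GP alone, and such a gene can lie apart in 1 direction only. On the plot of COR against GP, the genes of the skeleton and of position stand out from a narrow diagonal.

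**Figure D1:**
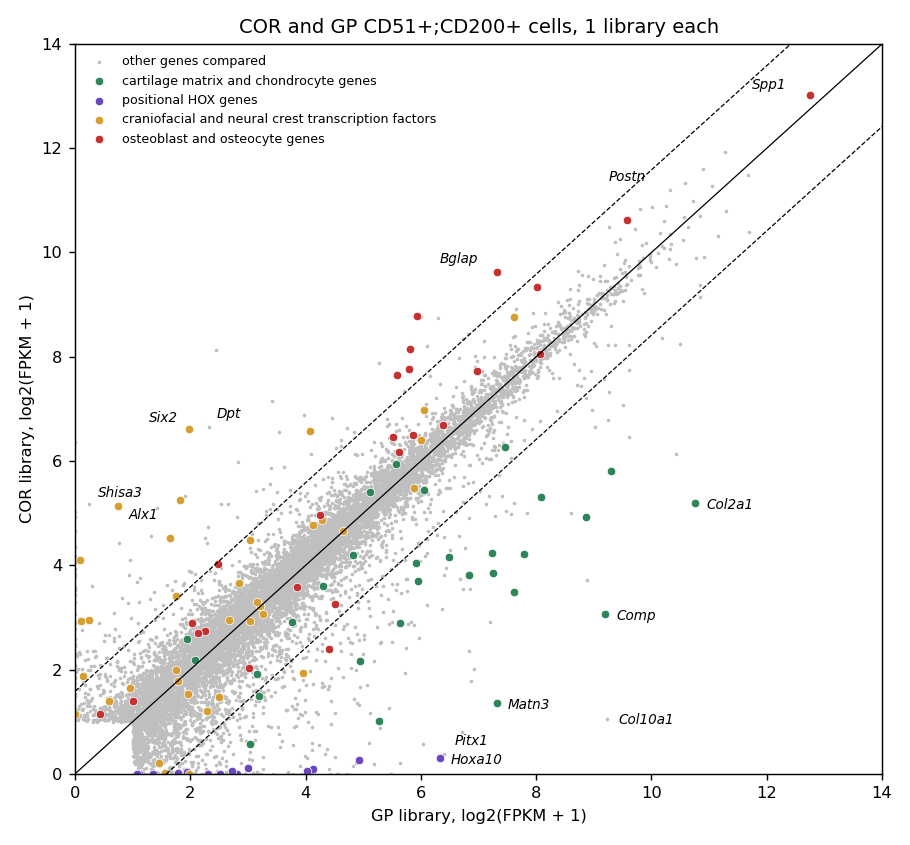
Each point is 1 of the 12206 genes compared, with log2(FPKM + 1) in the GP library on the horizontal axis and in the COR library on the vertical axis. The solid line marks equal values and the dashed lines 3-fold, past which lie 388 genes on the GP side and 146 on the COR side. Colors mark 4 of the gene lists, of which cartilage and HOX genes lie toward GP.

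The other pairs of libraries were farther apart. On log2(FPKM + 1) over 13994 genes, the Euclidean distance was 81.4 for COR and GP, 112 for GP and SAG, 113 for COR and SAG, 118 for COR and PF, 124 for GP and PF, and 139 for PF and SAG. The corresponding counts of genes 3-fold or more apart were 534 for COR and GP, 1117 for GP and SAG, 1173 for COR and SAG, 1497 for COR and PF, 1566 for GP and PF, and 2113 for PF and SAG. These values share libraries with each other and are those by which the pair was chosen. COR was nearer to the tibial growth plate than to either of the other sutures on both measures.

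**Figure D2:**
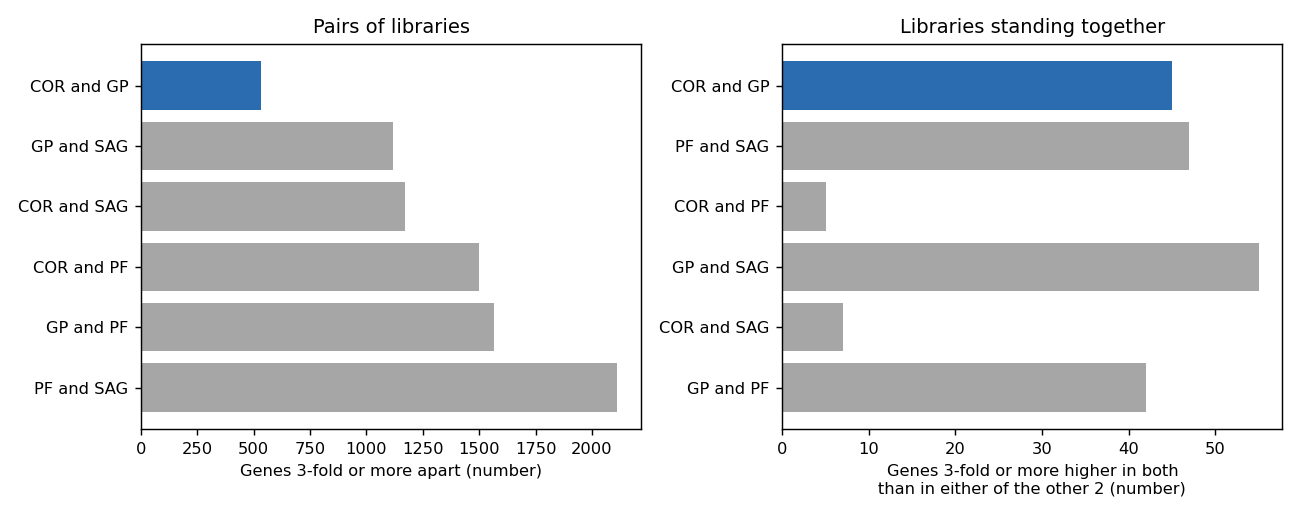
Left, bars give the number of genes 3-fold or more apart for each of the 6 pairs of libraries, with COR and GP (blue) lowest at 534. Right, bars give the number of genes 3-fold or more higher in both named libraries than in either of the other 2, at 45 for COR and GP, 47 for PF and SAG, 55 for GP and SAG, 42 for GP and PF, 5 for COR and PF, and 7 for COR and SAG.

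The genes that stood high in both COR and GP included genes of mineralizing bone. In all, 45 genes were 3-fold or more higher in both COR and GP than in either of the others, and 42 of them were not short RNA genes. Such sharing was not particular to this pair. By the same rule the count was 55 for GP and SAG, 47 for PF and SAG, and 42 for GP and PF. It was 5 for COR and PF and 7 for COR and SAG. The 45 became 127 with 0.1 added to each FPKM and 26 when 1 FPKM or more was required in all 4 libraries. *Spp1*, which encodes osteopontin and had the highest FPKM of the genes compared in both libraries, was at 8324 FPKM in COR cells and 6882 in GP cells, against 1649 in PF and 617 in SAG. *Ibsp*, encoding bone sialoprotein, was at 1575 in COR and 761 in GP, against 123 in PF and 104 in SAG. *Postn*, encoding the matrix protein periostin of periosteum and ligament, was at 2358 in COR and 1284 in GP, against 166 in PF and 191 in SAG. For these 3 genes both COR and GP stood far above both other sutures, while the COR and GP values lay within 3-fold of each other. *Panx3*, a pannexin channel of osteoblasts and hypertrophic chondrocytes, was at 149.7 in COR and 104 in GP, against 17.1 in PF and 4.46 in SAG. *Aspn*, the small proteoglycan asporin, was at 1115 in COR and 1166 in GP, against 222 in PF and 126 in SAG. *Dlx5*, a homeobox factor of osteoblast differentiation, was at 102 in COR and 82.3 in GP, against 22.6 in PF and 20.9 in SAG. Genes known from osteocytes stood with them at lower levels. *Mepe* was at 5.52 in COR and 3.39 in GP, against 0.0353 in PF and 0.146 in SAG, and *Phex* was at 5.66 in COR and 3.74 in GP, against 0.0527 in PF and 0.462 in SAG. The osteoclast-inducing ligand *Tnfsf11* (RANKL) was at 8.56 in COR and 21.8 in GP, against 0.134 in PF and 1.14 in SAG.

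Others of these genes have roles outside mineral, and short RNA genes aside the 3 widest separations were at *Tnfaip6*, *Cdh13*, and *Anxa8*. *Tnfaip6*, a hyaluronan-binding protein induced in inflammation, was at 59.4 FPKM in COR cells and 114 in GP cells, against 3.02 in PF and 6.27 in SAG. The non-classical cadherin *Cdh13* was at 16.6 in COR and 18.6 in GP, against 0.216 in PF and 1.26 in SAG, and the annexin *Anxa8* was at 66.1 in COR and 91.2 in GP, against 6.89 in PF and 8.88 in SAG. *S100a4*, a calcium-binding protein of fibroblasts, was at 276 in COR and 219 in GP, against 32.5 in PF and 18.04 in SAG. These 4 genes, too, were within 3-fold between COR and GP. The extracellular Wnt antagonist *Wif1* was at 203 in COR and 234 in GP, against 64.6 in PF and 42.1 in SAG. The ligand *Ihh*, Indian hedgehog, met the same criterion, but unlike the genes above it was itself 3-fold or more higher in GP, at 6.48 FPKM in COR and 44.01 in GP, against 0.136 in PF and 0.381 in SAG.

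In the other direction, 47 genes were 3-fold or more lower in both COR and GP than in either of the others, and 45 of these were not short RNA genes. *Apoe*, encoding a lipid carrier made by many glia and macrophages, was at 159 FPKM in COR cells and 119.98 in GP cells, against 1883 in PF and 971 in SAG. *Vtn*, encoding the adhesion protein vitronectin, was at 1.14 in COR and 2.46 in GP, against 67.6 in PF and 26.4 in SAG. *Krt19*, an epithelial keratin, was at 2.28 in COR and 0.543 in GP, against 24.9 in PF and 46.7 in SAG, and *Optc*, the small proteoglycan opticin, was at 0.641 in COR and 0.465 in GP, against 10.1 in PF and 18.7 in SAG. Of these genes, *Apoe* was abundant in COR and GP too, and the other 3 were at or below 2.46 FPKM in both. *Aldh1a2*, the retinoic acid-producing enzyme that marks meninges in the head, was at 1.302 in COR and 1.66 in GP, against 62.1 in PF and 7.09 in SAG.

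Genes of position in the body differed between COR and GP. Of 39 HOX genes listed, 15 had FPKM of 1 or more in GP and 0 in COR, where the highest HOX value was 0.226 FPKM and 27 were listed at 0. Because all 15 entered the comparison through GP alone, their direction was set by the filter, and 12 of them were 3-fold or more apart, where 3.18% of all genes compared were that much higher in GP. *Hoxa10* (mm9 chromosome 6, 52181196 to 52190853), which helps to pattern the upper segment of the limb, was at 0.226 FPKM in COR cells and 79.6 in GP cells, a log2 ratio of -6.04. *Hoxa11*, which patterns the middle segment to which the tibia belongs, was at 0.199 in COR and 29.6 in GP. *Hoxa9* was at 0.0625 in COR and 16.4 in GP, and *Hoxc10* at 0.0317 in COR and 15.3 in GP. The HOX signal of GP came mainly from the HoxA cluster, whose 11 genes summed to 141 FPKM in GP and 0.545 in COR. The 9 HoxC genes summed to 28.5 FPKM in GP and 0.0626 in COR, the 9 HoxD genes to 10.5 and 0.109, and the 10 HoxB genes to 6.62 and 0.055. By paralog group, the sum in GP was highest for group 10, at 95.4 FPKM, then group 11, at 30.9, and group 9, at 25.3, and it was at most 8.55 for each of the others. *Hoxa11os*, annotated antisense to *Hoxa11*, was at 0.136 in COR and 35.4 in GP, but the strand of the reads is not stated, so reads of the 2 genes cannot be told apart. PF and SAG were like COR, with *Hoxa10* at 0.594 in PF and 0.145 in SAG.

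Transcription factors of the limb followed HOX in part. Of 19 listed, 11 were compared, 4 were 3-fold or more higher in GP and 1 in COR, against 3.18% and 1.20% of all genes compared. Each of the 4 was below 1 FPKM in COR and so was compared through GP alone, which sets its direction. *Pitx1* (chromosome 13, 55926415 to 55937553), which specifies the hindlimb, was at 0.305 FPKM in COR cells and 83.7 in GP cells. *Shox2*, which is needed for the proximal limb, was at 0.161 in COR and 48.8 in GP, and *Tbx4*, a hindlimb T-box factor, was at 0.256 in COR and 21.7 in GP. *Tbx3*, the fourth gene higher in GP, was at 0.251 in COR and 4.31 in GP. The hindlimb factors were thus present in GP and near 0 in COR, as they were in PF and SAG, where *Pitx1* was at 0.536 and 0.197 FPKM. In contrast, *Irx3*, an Iroquois factor with roles in both limb and head, was at 41.7 in COR and 7.82 in GP. Its neighbor *Irx5* was at 40.7 in COR and 13.9 in GP, short of 3-fold. *Tbx2* was at 16.9 in COR and 27.97 in GP, and *Tbx5*, the forelimb counterpart of *Tbx4*, was below 1 FPKM in both.

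The craniofacial and neural crest transcription factors had the opposite balance, with 10 of the 37 compared 3-fold or more higher in COR and 2 higher in GP, against 1.20% and 3.18% of all genes compared. Of the 37, 34 had FPKM of 1 or more in COR and 29 in GP. A member that passed in 1 library only, such as *Alx1*, had its direction set by the filter. Over the 26 that passed in both, the median log2 ratio was 0.29, against 0.59 over the 37. *Six2* (chromosome 17, 86083608 to 86087594), a homeobox factor of head and kidney mesenchyme, was at 96.5 FPKM in COR cells and 2.94 in GP cells. *Alx1*, a homeobox factor needed for the frontonasal skeleton, was at 34.2 in COR and 0.674 in GP. The forkhead factor *Foxd1* was at 37.1 in COR and 2.52 in GP. *Msx1*, which acts in tooth and palate, was at 94.4 in COR and 15.9 in GP, and its relative *Msx2*, which acts in growth of the skull vault, was at 22.1 in COR and 2.13 in GP. All 5 were also present in the other sutures. *Alx1* was higher in COR than in either, with 17.8 in PF and 14.2 in SAG. *Six2* in COR lay between them, with 191 in PF and 77.04 in SAG. *Foxd1*, *Msx1*, and *Msx2* were lower in COR than in either, with *Msx1* at 258 in PF and 175 in SAG.

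Many head factors did not separate the libraries. *Twist1*, a basic helix-loop-helix factor that keeps the coronal suture open, was at 124 FPKM in COR cells and 65.6 in GP cells. *Prrx1*, a marker of limb and skull mesenchyme, was at 43.5 in COR and 57.7 in GP, and *Prrx2* at 433 in COR and 196 in GP. *Foxc1*, a forkhead factor of skull and meninges, was at 24.4 in COR and 24.02 in GP. *Snai2*, a zinc finger factor of migrating neural crest, was at 83.5 in COR and 63.03 in GP. Each of these 5 was within 3-fold and well above 1 FPKM in both, so transcripts of these factors were found in the tibial library too. The 2 factors higher in GP were *Sox10*, at 2.799 in COR and 14.6 in GP, a neural crest factor that Schwann cells retain, and *Hand1*, listed at 0 in COR and at 2.93 FPKM in GP.

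**Figure D3:**
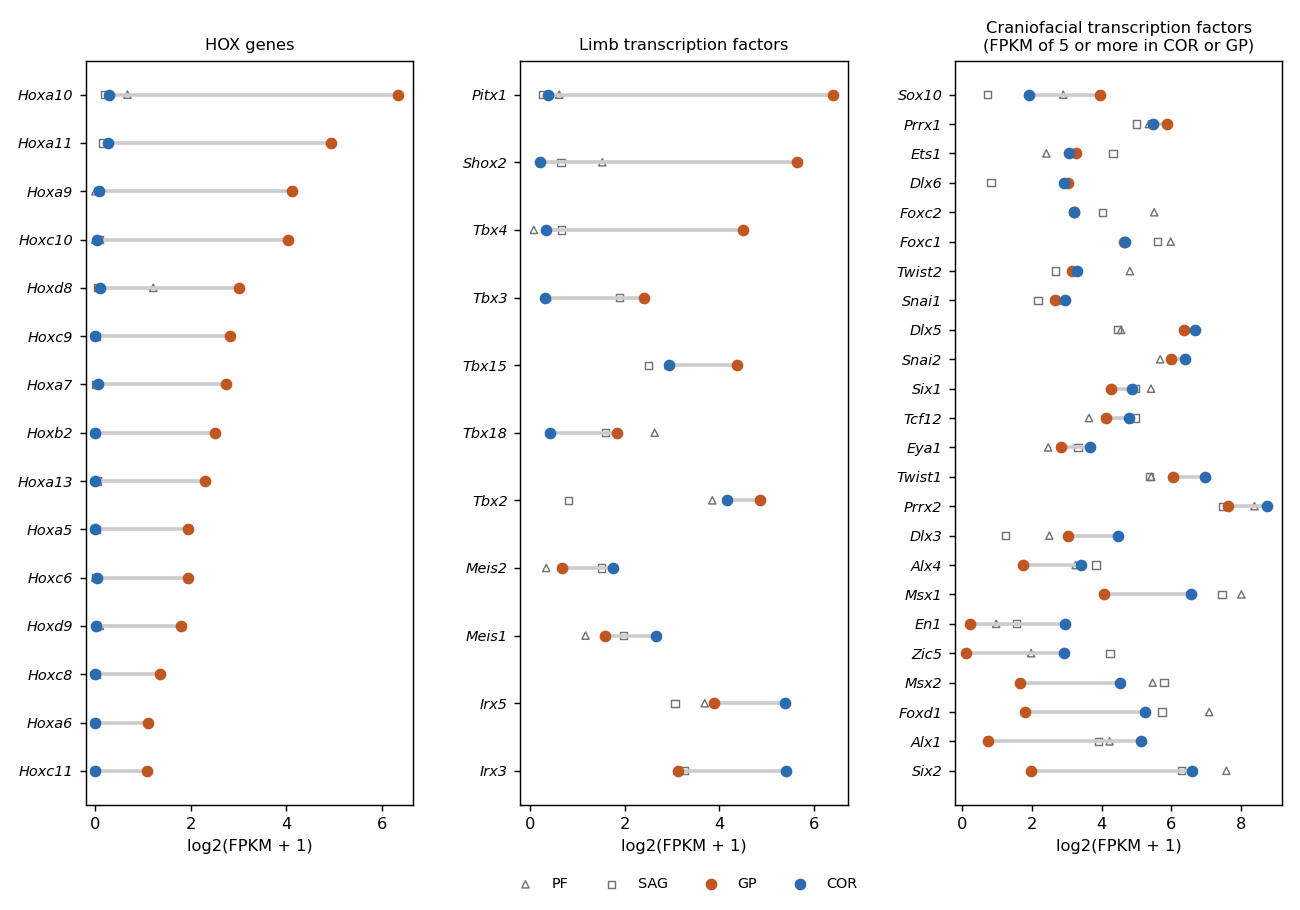
Each row is 1 gene, with log2(FPKM + 1) on the horizontal axis in COR (blue), GP (orange), PF (triangle), and SAG (square). Left, the 15 HOX genes compared are near 0 in COR. Middle, the 11 limb factors compared, with *Pitx1*, *Shox2*, and *Tbx4* far higher in GP. Right, craniofacial factors with 5 FPKM or more in COR or GP, with *Six2* and *Alx1* far higher in COR.

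Cartilage genes were far higher in GP. Of 30 listed, 29 were found and compared, and 19 were 3-fold or more higher in GP, 0 in COR, with a median log2 ratio of -2.46. Over all genes compared the median was 0.02, with 3.18% higher in GP. The sum over the list was 565 FPKM in COR and 5401 in GP. *Col2a1*, encoding the main fibrillar collagen of cartilage, was at 35.4 FPKM in COR cells and 1731 in GP cells. *Comp* (chromosome 8, 72897447 to 72905964), a matrix protein of cartilage and tendon, was at 7.35 in COR and 587 in GP. *Matn3*, encoding matrilin 3, was at 1.55 in COR and 159 in GP. In each of these genes the COR value was a small part of the GP value, though only *Matn3* of the 3 was close to 1 FPKM in COR. *Col9a2* and *Col9a3*, chains of collagen IX that coats the collagen II fibril, were at 10.3 and 195 FPKM and 29.4 and 465 FPKM in COR and GP. *Chad*, chondroadherin, was at 54.9 in COR and 631 in GP, *Lect1*, chondromodulin, at 17.5 in COR and 219 in GP, and *Prg4*, the joint lubricant lubricin, at 1.03 in COR and 37.8 in GP. Cartilage transcripts outside the matched list also stood among the farthest genes. The gene *3110079O15Rik*, a proteoglycan gene that RefSeq names Snorc, was at 12.1 in COR and 472 in GP, and *Clec3a*, a cartilage lectin, was at 2.45 in COR and 116 in GP.

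Regulators of chondrocytes were found on both sides of 3-fold. *Sox9*, the master factor of chondrocytes, was at 11.9 FPKM in COR cells and 60.8 in GP cells, a log2 ratio of -2.26. Its partners *Sox5*, at 3.53 in COR and 3.25 in GP, and *Sox6*, at 5.01 in COR and 2.86 in GP, were within 3-fold. *Acan*, encoding the proteoglycan aggrecan, was at 15.6 in COR and 59.0001 in GP. *Matn4* was at 60.9 in COR and 46.3 in GP, the receptor *Fgfr3* at 41.4 in COR and 33.8 in GP, and *Col11a2* at 42.7 in COR and 65.4 in GP, all within 3-fold. The list was thus not uniform, and 10 of its 29 genes were not 3-fold apart. Among the sutures, SAG was the one with GP-like cartilage levels, with *Col2a1* at 1749.8 FPKM against 31.4 in PF.

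Hypertrophic cartilage was marked by 1 gene above all. *Col10a1* (chromosome 10, 34109787 to 34116891), encoding the collagen X of hypertrophic chondrocytes, was at 1.08 FPKM in COR cells and 600.5 in GP cells, and its log2 ratio of -8.17 was the lowest of all genes compared. It was at 1.44 in PF and 0.813 in SAG, so of the 4 libraries only GP had it above 2 FPKM. *Ihh*, which prehypertrophic chondrocytes secrete to set the pace of the growth plate, was at 6.48 in COR and 44.01 in GP. These were the 2 of 12 hypertrophic genes that were 3-fold or more higher in GP, and the osteoblast factor *Sp7*, given with the osteoblast genes, was the 1 that was higher in COR. Over all genes compared, 3.18% were that much higher in GP and 1.20% in COR. *Mmp13*, the collagenase of hypertrophic cartilage and osteoblasts, was at 298 in COR and 605 in GP, and *Vegfa*, which draws in vessels, at 16.5 in COR and 21.2 in GP. *Pth1r*, the receptor of the hormone PTHrP, was at 380.2 in COR and 241 in GP. The median log2 ratio of the list was 0.45. Of the 12 genes, 8 were higher in both COR and GP than in both PF and SAG, as were 19.5% of all genes compared. *Ibsp*, *Alpl*, and *Sp7* are members of the osteoblast list as well, so the values of these lists are not separate.

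Osteoblast genes were abundant in both libraries and mostly higher in COR. Of 27 listed, 25 were compared, 20 had a log2 ratio above 0, 5 were 3-fold or more higher in COR and 1 in GP, against 1.20% and 3.18% of all genes compared, and the median log2 ratio was 0.71. The sum over the list was 13387 FPKM in COR and 8999 in GP. *Ifitm5*, an osteoblast membrane protein, was at 439.8 FPKM in COR cells and 60.4 in GP cells. *Dmp1*, a matrix protein of osteocytes and late osteoblasts, was at 281 in COR and 54.96 in GP. *Sp7*, the osteoblast factor osterix, was at 199.9 in COR and 47.3 in GP. The 3 genes were several-fold apart between libraries in which all of them were abundant. *Bglap* (chromosome 3, 88187423 to 88188386), encoding osteocalcin, was at 790.1 in COR and 159 in GP, and its near-identical copy *Bglap2* at 216 in COR and 54.7 in GP. Reads can be shared among such copies, so the split between them is uncertain, and *Bglap*, *Bglap2*, and *Bglap3* together summed to 1008 FPKM in COR and 214 in GP. Other genes of the lineage were closer. *Runx2*, the factor that starts osteoblast differentiation, was at 30.4 in COR and 18.1 in GP, and *Alpl*, the alkaline phosphatase, at 645 in COR and 258 in GP, both within 3-fold. The only gene of this list that was 3-fold or more higher in GP was *Tnfrsf11b*, encoding osteoprotegerin, the decoy receptor of RANKL, at 4.24 in COR and 20.1 in GP. Of the 25 genes, 15 were higher in both COR and GP than in both PF and SAG, against 19.5% of all genes compared, and none was lower in both. Several of the genes named here were not among the 15, because PF lay above GP. In PF, *Bglap* was at 426 FPKM, *Bglap2* at 116, *Ifitm5* at 141, and *Alpl* at 461, each between GP and COR. *Dmp1*, at 19.7 in PF, and *Sp7*, at 33.8 in PF, were lower there than in GP.

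**Figure D4:**
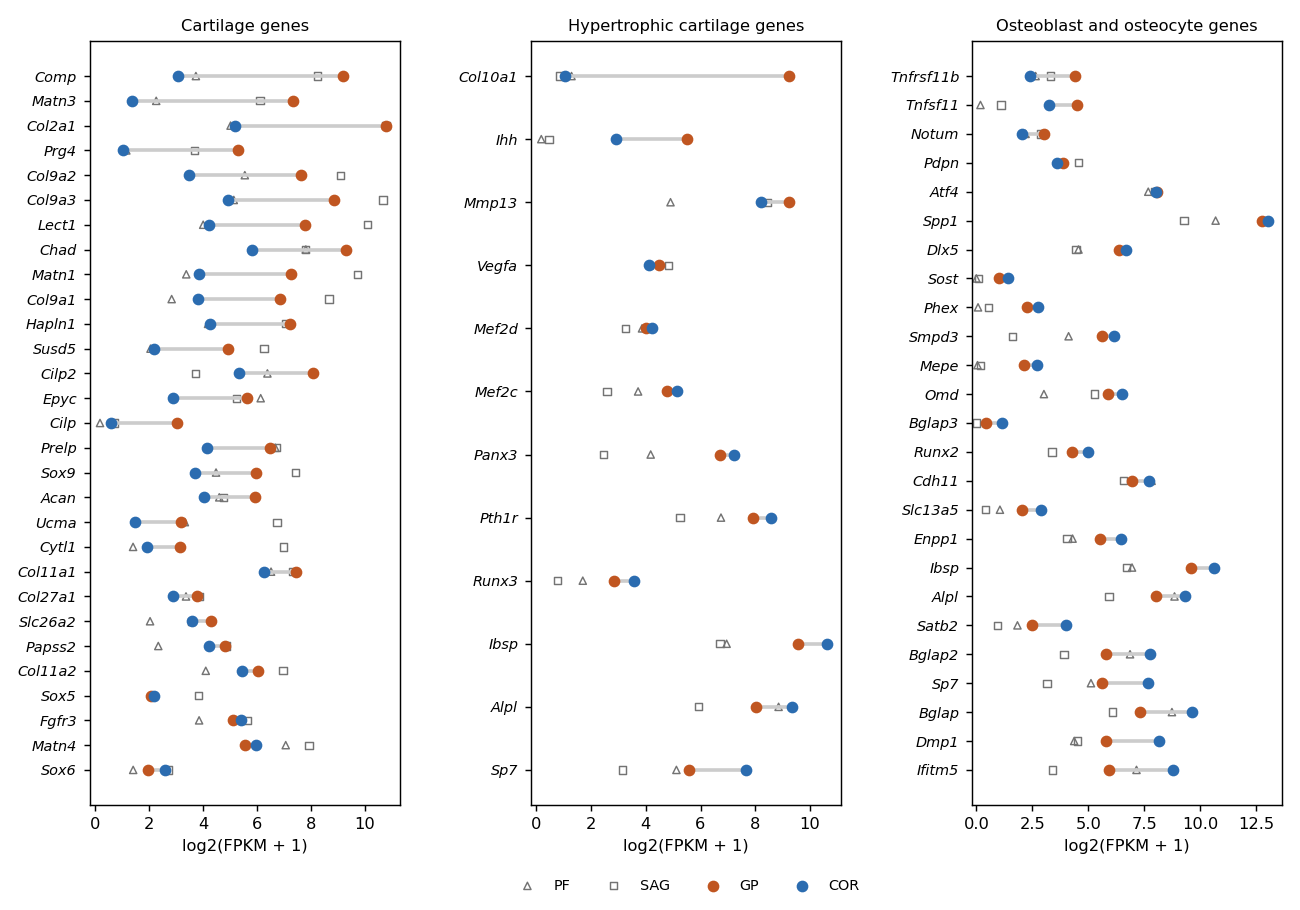
Each row is 1 gene, with log2(FPKM + 1) on the horizontal axis in COR (blue), GP (orange), PF (triangle), and SAG (square). Left, most of the 29 cartilage genes are higher in GP, and many are as high or higher in SAG. Middle, *Col10a1* is at 600.5 FPKM in GP and near 1 in the other libraries. Right, most of the 25 osteoblast genes are higher in COR than in GP and lower in PF and SAG.

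Promoters of 4 genes from opposite ends of the comparison are shown, each as the 250 bases before the start site, 5′ to 3′ on the strand of the gene, from RefSeq on build GRCm38.p6. *Bglap* stands for the osteoblast genes, *Dpt* for the fibrous genes far higher in COR, *Col10a1* for GP, and *Six2* for the head factors. Capitals mark TGTGGT, the core letters bound by RUNX factors, read on either strand (as ACCACA on the minus strand), and TATAAA, the letters of a TATA box, read on either strand.
Bglap: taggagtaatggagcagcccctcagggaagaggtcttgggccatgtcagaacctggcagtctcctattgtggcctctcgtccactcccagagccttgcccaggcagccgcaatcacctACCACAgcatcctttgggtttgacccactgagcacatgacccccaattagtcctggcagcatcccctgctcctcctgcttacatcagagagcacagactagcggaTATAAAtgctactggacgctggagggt
Dpt: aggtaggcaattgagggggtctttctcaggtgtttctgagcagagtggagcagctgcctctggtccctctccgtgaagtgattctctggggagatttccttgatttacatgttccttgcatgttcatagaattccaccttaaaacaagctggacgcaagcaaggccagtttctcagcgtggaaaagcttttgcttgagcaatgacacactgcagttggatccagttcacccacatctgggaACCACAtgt
Col10a1: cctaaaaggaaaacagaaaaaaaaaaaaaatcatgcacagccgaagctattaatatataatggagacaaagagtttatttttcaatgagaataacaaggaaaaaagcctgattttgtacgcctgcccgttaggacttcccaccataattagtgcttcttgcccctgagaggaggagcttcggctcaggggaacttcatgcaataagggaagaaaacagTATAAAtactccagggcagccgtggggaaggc
Six2: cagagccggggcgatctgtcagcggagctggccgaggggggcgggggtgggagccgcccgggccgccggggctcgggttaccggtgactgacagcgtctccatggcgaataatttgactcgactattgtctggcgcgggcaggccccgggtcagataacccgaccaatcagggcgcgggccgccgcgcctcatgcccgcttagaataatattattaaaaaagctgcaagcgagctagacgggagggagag
The windows lie at chr3:88384467-88384716, minus strand for *Bglap*, chr1:164796413-164796662, plus strand for *Dpt*, chr10:34389731-34389980, plus strand for *Col10a1*, and chr17:85688255-85688504, minus strand for *Six2*. In *Bglap*, a RUNX core begins 132 bases before the start and a TATA box 27 bases before it. In *Dpt*, a RUNX core begins 9 bases before the start, and in *Col10a1* a TATA box begins 32 bases before it. The *Six2* window holds neither set of letters and has 26 CG dinucleotides, against 4 for *Bglap*, 3 for *Dpt*, and 5 for *Col10a1*. The 6 letters of the RUNX core were present in 15.9% of all 27025 promoter windows of this length, in 11 of 84 promoters of genes 3-fold or more higher in COR, and in 41 of 243 of those higher in GP. They were present in 12.4% of the promoters of genes compared, in 6 of 19 of the osteoblast list, and in 6 of 22 of the cartilage list. TATAAA was present in 14.3% of all windows, in 7.78% of the promoters of genes compared, in 6 of 19 of the osteoblast list, and in 3 of 22 of the cartilage list. It was present in 11 of 84 promoters of genes 3-fold or more higher in COR and in 35 of 243 of those higher in GP. A match is a description of the letters only.

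Genes of tendon and ligament lay toward GP. Of 12 compared, 6 were 3-fold or more higher in GP and 0 in COR, against 3.18% and 1.20% of all genes compared, and the median log2 ratio was -1.17. *Comp* is also in this list. *Kera*, encoding the small proteoglycan keratocan, was at 0.737 FPKM in COR cells and 104 in GP cells. *Thbs4*, a thrombospondin of tendon and muscle, was at 3.01 in COR and 119.8 in GP, and *Tnmd*, the tendon marker tenomodulin, was at 69.6 in COR and 1379 in GP. *Fmod*, the small proteoglycan fibromodulin, was abundant in both, at 565 in COR and 1828 in GP. The tendon factors were within 3-fold, with *Scx* (scleraxis) at 107 in COR and 168 in GP and *Mkx* (mohawk) at 19.2 in COR and 26.3 in GP. The matrix genes *Thbs2*, at 529 in COR and 332 in GP, and *Thbs3*, at 106 in COR and 162 in GP, were within 3-fold as well.

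Genes of fibrous mesenchyme were found on both sides. Of 38 compared, 2 were 3-fold or more higher in COR, 6 higher in GP, and 30 not 3-fold apart, a smaller share than the 95.6% of all genes compared. Of the 38, 16 were within 1.5-fold, against 87.3% of all genes with 5 FPKM or more in both libraries. *Lum*, the collagen-binding proteoglycan lumican, was at 1898 FPKM in COR cells and 1213 in GP cells, *Dcn*, decorin, at 1271 in COR and 2268 in GP, and *Bgn*, biglycan, at 941 in COR and 1266 in GP. *Mfap4*, a protein of elastic fibers, was at 842 in COR and 1077 in GP. The 2 genes higher in COR were *Dpt* (chromosome 1, 166726863 to 166754397), encoding dermatopontin, a dermal matrix protein that binds decorin, at 100.1 in COR and 4.01 in GP, and *Tnn*, encoding tenascin W of periosteum and bone, at 431 in COR and 62.7 in GP. Both were lower in PF and SAG than in COR, with *Dpt* at 1.05 in PF and 2.11 in SAG and *Tnn* at 15.7 in PF and 10.7 in SAG. Toward GP lay *Fbn2*, a fibrillin of early microfibrils, at 1.63 in COR and 20.7 in GP, *Mfap5*, which associates with microfibrils, at 14.5 in COR and 85.5 in GP, and *Ogn*, the small proteoglycan osteoglycin, at 214 in COR and 783 in GP. Of 27 matrix proteases and inhibitors compared, 2 were 3-fold or more higher in COR and 1 in GP, and 24 were not 3-fold apart, against 95.6% of all genes compared. *Mmp2* was at 857 in COR and 777 in GP and *Mmp14*, which activates it, at 705 in COR and 597 in GP. The exceptions were *Mmp3*, at 12.4 in COR and 1.19 in GP, and *Mmp19*, at 4.29 in COR and 0.689 in GP, toward COR, and *Mmp9*, the gelatinase of osteoclasts and growth plate vessels, at 29.9 in COR and 154 in GP, toward GP.

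Outside these groups, the farthest genes on the COR side were a mixed set. *Rps27rt*, a processed copy of the ribosomal protein gene *Rps27*, was at 278 FPKM in COR cells and 4.48 in GP cells, with the highest log2 ratio, 5.67, among genes above 0 in both libraries other than short RNA genes. Its parent *Rps27* was displaced the other way, at 297 in COR and 778 in GP, and together they summed to 574 FPKM in COR, 783 in GP, 704 in PF, and 584 in SAG, so the value of the copy alone is uncertain. *Shisa3*, which holds back Wnt and FGF receptors in the endoplasmic reticulum, was at 35.1 in COR and 0.186 in GP. *Efemp1*, encoding fibulin 3, was at 20.5 in COR and 0.704 in GP, and both were present in the other sutures, *Shisa3* at 151 in PF and 24.9 in SAG and *Efemp1* at 37.6 in PF and 13.6 in SAG. *Duoxa1*, a maturation factor of dual oxidase, was at 39.2 in COR and 2.73 in GP, with 0.243 in PF and 0.405 in SAG. *Nrgn*, the calmodulin-binding neurogranin, was at 33.1 in COR and 1.66 in GP, and *Avil*, the actin-binding advillin, at 11.2 in COR and 0.2305 in GP. *Ttr*, the thyroid hormone carrier transthyretin of choroid plexus and liver, was at 141 in COR and 9.74 in GP, and at 465 in PF and 5103 in SAG. On the GP side, *F13a1*, the transglutaminase subunit of coagulation factor XIII, was at 0.486 in COR and 64.7 in GP, with 0.817 in PF and 2.43 in SAG.

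Among signaling genes, single ligands and antagonists were apart. Of 12 Wnt ligands compared, 1 was 3-fold or more higher in COR and 3 in GP, against 1.20% and 3.18% of all genes compared, and these shares are also the background of the other signaling lists. *Wnt16*, a ligand of bone-forming surfaces and joints, was at 0.3996 FPKM in COR cells and 19.6 in GP cells. *Wnt5a*, a ligand that acts largely without beta-catenin, was at 5.001 in COR and 31.4 in GP, and *Wnt4* was at 1.12 in COR and 6.58 in GP. *Wnt10a*, a beta-catenin ligand of skin and tooth, was at 5.32 in COR and 0.439 in GP. *Wnt5b* was at 41.5 in COR and 29.8 in GP and *Wnt9a* at 15.4 in COR and 9.24 in GP, within 3-fold, and 6 of the 12 ligands were higher in both COR and GP than in both PF and SAG, against 19.5% of all genes compared. Of 37 Wnt receptors and secreted modulators compared, 2 were higher in COR and 5 in GP by 3-fold or more. *Sostdc1*, an antagonist of Wnt and BMP, was at 12.3 in COR and 102 in GP, and *Sfrp5*, a secreted frizzled-related antagonist, at 1.29 in COR and 17.1 in GP. *Lgr5*, an R-spondin receptor, was at 0.885 in COR and 9.202 in GP, while the ligand *Rspo1* was at 6.397 in COR and 0.325 in GP and the antagonist *Dkk1* at 27.04 in COR and 8.05 in GP. Antagonists of the pathway were thus found on both sides. *Fzd1* was at 28.8 in COR and 24.2 in GP, *Wls*, which Wnt secretion needs, at 103 in COR and 113 in GP, and *Dkk3* at 261 in COR and 206 in GP, all within 1.5-fold.

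Of 30 genes of BMP signaling compared, 17 were within 1.5-fold, 1 was 3-fold or more higher in COR, and 4 higher in GP. The share within 1.5-fold was 87.3% among all genes with 5 FPKM or more in both libraries. Lists of this paragraph were not held to that level, so the comparison is rough. Of the 4, 2 are antagonists. *Grem1*, which binds BMPs, was at 0.234 FPKM in COR cells and 15.3 in GP cells, and *Fst*, which binds activins, was at 2.21 in COR and 20.1 in GP. The other 2 are ligands, of which *Gdf5*, a factor of joint formation, was at 2.17 in COR and 18.4 in GP and *Bmp5* at 4.95 in COR and 29.4 in GP. On the COR side, *Gdf10*, a ligand also called BMP3b, was at 58.3 in COR and 11.3 in GP. The targets *Id1*, at 115 in COR and 99.1 in GP, and *Id3*, at 606 in COR and 688 in GP, were within 1.5-fold. Of 13 TGF-beta genes, 1 was 3-fold or more higher in GP, 1 higher in COR, and 7 were within 1.5-fold. *Inhba*, the activin A subunit, was at 31.1 in COR and 229 in GP, and *Tgfb1* was at 30.2 in COR and 8.92 in GP. Of 18 FGF genes, 3 were 3-fold or more higher in GP and 0 in COR. *Fgf18*, a ligand that limits chondrocyte growth and promotes bone formation in the skull, was at 5.06 in COR and 61.4 in GP. The ligand *Fgf7* was at 2.52 in COR and 10.002 in GP, and the feedback inhibitor *Spry1* was at 10.5 in COR and 46.7 in GP. The receptors *Fgfr1*, at 44.2 in COR and 36.7 in GP, and *Fgfr2*, at 94.6 in COR and 46.3 in GP, were within 3-fold.

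In the hedgehog loop of 15 genes, the ligand *Ihh* was the 1 that was 3-fold or more higher in GP, and *Hhip*, a decoy receptor and target of the pathway, the 1 higher in COR, at 8.49 FPKM in COR cells and 1.89 in GP cells. Other targets were low in both. *Ptch1*, the receptor, was at 2.18 in COR and 1.43 in GP, and the transcription factor *Gli1* was at 3.99 in COR and 2.06 in GP. The binding proteins *Igfbp3*, at 134 in COR and 724 in GP, and *Igfbp7*, at 329 in COR and 1157 in GP, were the 2 of 11 IGF genes that were 3-fold or more higher in GP, and *Igf2* was at 671 in COR and 763 in GP. Of 11 Notch genes, 1 was 3-fold or more higher in GP, *Nrarp*, at 1.63 in COR and 8.09 in GP, and the target *Hes1* was at 53.7 in COR and 44.6 in GP. Of 15 markers used for suture and marrow stem cells, 1 was 3-fold or more higher in COR and 3 in GP. Over all genes compared the shares were 1.20% and 3.18%. The marker higher in COR was *Cd44*, a hyaluronan receptor, at 75.1 in COR and 22.2 in GP. Those higher in GP were *Grem1*, *Mcam* (CD146), at 7.59 in COR and 39.4 in GP, and *Nt5e* (CD73), at 15.9 in COR and 61.98 in GP. *Ctsk* was at 476 in COR and 576 in GP, *Cxcl12* at 93.03 in COR and 108 in GP, and *Gli1*, which marks suture stem cells, below 5 FPKM in both. *Axin2* was below 1 FPKM in both and was not compared.

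Of 25 S phase genes and 25 G2 and M phase genes compared, 0 were 3-fold apart, against 4.37% of all genes compared, with median log2 ratios of -0.38 and 0.16. The S phase genes lay toward GP in 23 of 25 and the G2 and M phase genes toward COR in 16 of 25. *Ccnb1*, encoding cyclin B1, was at 21.97 FPKM in COR cells and 15.2 in GP cells, *Birc5*, encoding survivin, at 78.8 in COR and 57.3 in GP, and *Pcna*, the DNA polymerase clamp, at 33.99 in COR and 57.4 in GP. Of 76 nuclear genes of oxidative phosphorylation, 74 were within 1.5-fold, and of 79 ribosomal protein genes 77 were, the farthest being *Rps27*, described above. The share was 87.3% among all genes with 5 FPKM or more in both libraries. Of 28 genes of glycolysis and hypoxia, 3 were 3-fold or more higher in GP, against 3.18% of all genes compared. These were the low *Car9* and *Aldoc* and the mitophagy receptor *Bnip3*, at 21.6 in COR and 68.03 in GP. *Gapdh* was at 335 in COR and 389 in GP.

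Immediate early genes, which respond within minutes to many stimuli, cell dissociation among them, lay toward GP. Of 26 immediate early genes compared, 3 were 3-fold or more higher in GP and 0 in COR, against 3.18% and 1.20% of all genes compared, with a median log2 ratio of -0.96, and the list summed to 1559 FPKM in COR and 3225 in GP. *Fos* was at 124 FPKM in COR cells and 327 in GP cells, *Junb* at 109 in COR and 268 in GP, and the 3 farthest were *Ctgf*, at 99.6 in COR and 518 in GP, *Atf3*, at 17.1 in COR and 66.5 in GP, and *Nr4a1*, at 11.5 in COR and 44.01 in GP. *Ctgf* also encodes a matrix-associated growth factor of cartilage. In SAG the levels were far higher, with *Fos* at 2298 FPKM. Of 16 heat shock genes, 1 was 3-fold or more higher in GP, *Hspb1*, at 9.16 in COR and 42.1 in GP, and *Hspa5* was at 659 in COR and 652 in GP. The part of cell handling in the differences between COR and GP was not tested.

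Markers of other cell types that the samples could hold were also counted, and several lists lay toward GP. Of 9 Schwann and glial markers, 8 were compared and 6 were 3-fold or more higher in GP, against 3.18% of all genes compared, with sums of 50.5 FPKM in COR and 223 in GP. *Mbp*, encoding a myelin protein, was at 13.002 FPKM in COR cells and 82.9 in GP cells, and *Sox10* as given above, so the higher *Sox10* value of GP came together with other Schwann cell genes, whose part in it was not tested. Of 11 smooth muscle and pericyte markers compared, 2 were 3-fold or more higher in GP, *Rgs5*, at 0.432 in COR and 10.8 in GP, and *Myh11*, at 3.46 in COR and 19.2 in GP, and the sums were 379 in COR and 704 in GP. Of 3 adipocyte markers compared, *Fabp4* was at 0.265 in COR and 14.9 in GP and *Lpl* at 6.03 in COR and 28.1 in GP, while *Cfd*, *Lep*, and *Cidec* were listed at 0 in both. Each of these lists was lower in COR.

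Leukocyte, endothelial, and red cell markers were at low levels in both. Of 19 leukocyte markers, 3 were compared, the list summed to 8.62 FPKM in COR and 18.4 in GP, and *Itgam*, *C1qa*, *C1qb*, *Tyrobp*, and *Cd3e* were listed at 0 in both. *Laptm5* was at 0.0235 FPKM in COR cells and 7.95 in GP cells, *Cd74* at 2.41 in COR and 0.0946 in GP, and *Lyz2*, a lysozyme of macrophages, at 4.15 in COR and 7.06 in GP. Of 13 endothelial markers, 5 were compared, with sums of 14.2 FPKM in COR and 20.8 in GP, and *Pecam1* was at 0.0421 in COR and 0.0443 in GP. *Esam*, an adhesion molecule of endothelium and platelets, was at 2.597 in COR and 10.5 in GP, and *Egfl7*, a matrix protein of endothelium, at 7.43 in COR and 3.81 in GP. Of the 7 red cell markers found, 1 was compared, and the list summed to 2.26 FPKM in COR, with a like sum in GP. Of 12 skeletal muscle markers, 4 were compared, with sums of 6.63 FPKM in COR and 21.7 in GP, and *Myog*, *Myod1*, *Pax7*, and *Ckm* were listed at 0 in both. *Tnni2* was at 1.19 in COR and 14.3 in GP. Of 11 neuron markers, 3 were compared, with sums of 22.3 FPKM in COR and 18.5 in GP. *Tubb3*, at 10.2 in COR and 1.59 in GP, was the 1 that was 3-fold or more higher in COR, against 1.20% of all genes compared. The other 2 were lower in COR and within 3-fold, *Gap43* at 11.7 in COR and 14.5 in GP and *Map2* at 0.182 in COR and 1.15 in GP. *Snap25* and *Elavl3* were listed at 0 in both. Of 8 keratinocyte markers, 5 were compared, with sums of 21.5 FPKM in COR and 14.9 in GP. Of the 5, 4 had a log2 ratio above 0 and 1 was 3-fold or more higher in COR, against 1.20% of all genes compared. That gene was *Krt15*, at 3.58 in COR and 0.171 in GP, while *Krt14* was listed at 0 in COR.

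Osteoclast markers include genes that osteoblasts and stromal cells also express. The list summed to 571 FPKM in COR and 794 in GP, of which *Ctsk* gave 476 and 576. *Acp5* was at 30.5 FPKM in COR cells and 27.1 in GP cells, while the defining genes *Calcr*, *Dcstamp*, *Ocstamp*, *Oscar*, and *Atp6v0d2* were each below 1 FPKM in both. *Mmp9* was the 1 gene of the 5 compared from this list that was 3-fold or more apart, against 4.37% of all genes compared. Among choroid plexus markers, *Ttr* and *Otx2*, a homeobox factor of forebrain and choroid plexus, at 4.09 in COR and 0.269 in GP, were higher in COR, and *Sostdc1*, *Prlr*, and *Enpp2* were higher in GP, with sums of 236 and 242 FPKM. By 3-fold or more, 2 of the 6 compared were higher in COR and 3 in GP, against 1.20% and 3.18% of all genes compared. *Folr1*, *Kcne2*, *Kl*, *Clic6*, *Kcnj13*, and *Slc4a5* were below 1 FPKM in both. *Ttr* and *Otx2* were both highest in SAG, at 5103 and 168 FPKM, and the part of brain-lining tissue in the COR value of *Ttr* was not tested. Of 10 meningeal markers compared, *Ptgds*, at 5.73 in COR and 0.08095 in GP, was higher in COR, and *Nov*, at 109 in COR and 603 in GP, *Crabp2*, at 31.9 in COR and 177 in GP, and *Dkk2*, at 1.97 in COR and 10.04 in GP, were higher in GP. Thus 1 of the 10 was 3-fold or more higher in COR and 3 in GP, against the same 1.20% and 3.18%. *Nov*, which encodes the matricellular protein CCN3, and *Crabp2*, which binds retinoic acid, are not restricted to meninges. The list summed to 188 FPKM in COR and 836 in GP, mostly from these 2 genes.

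**Figure D5:**
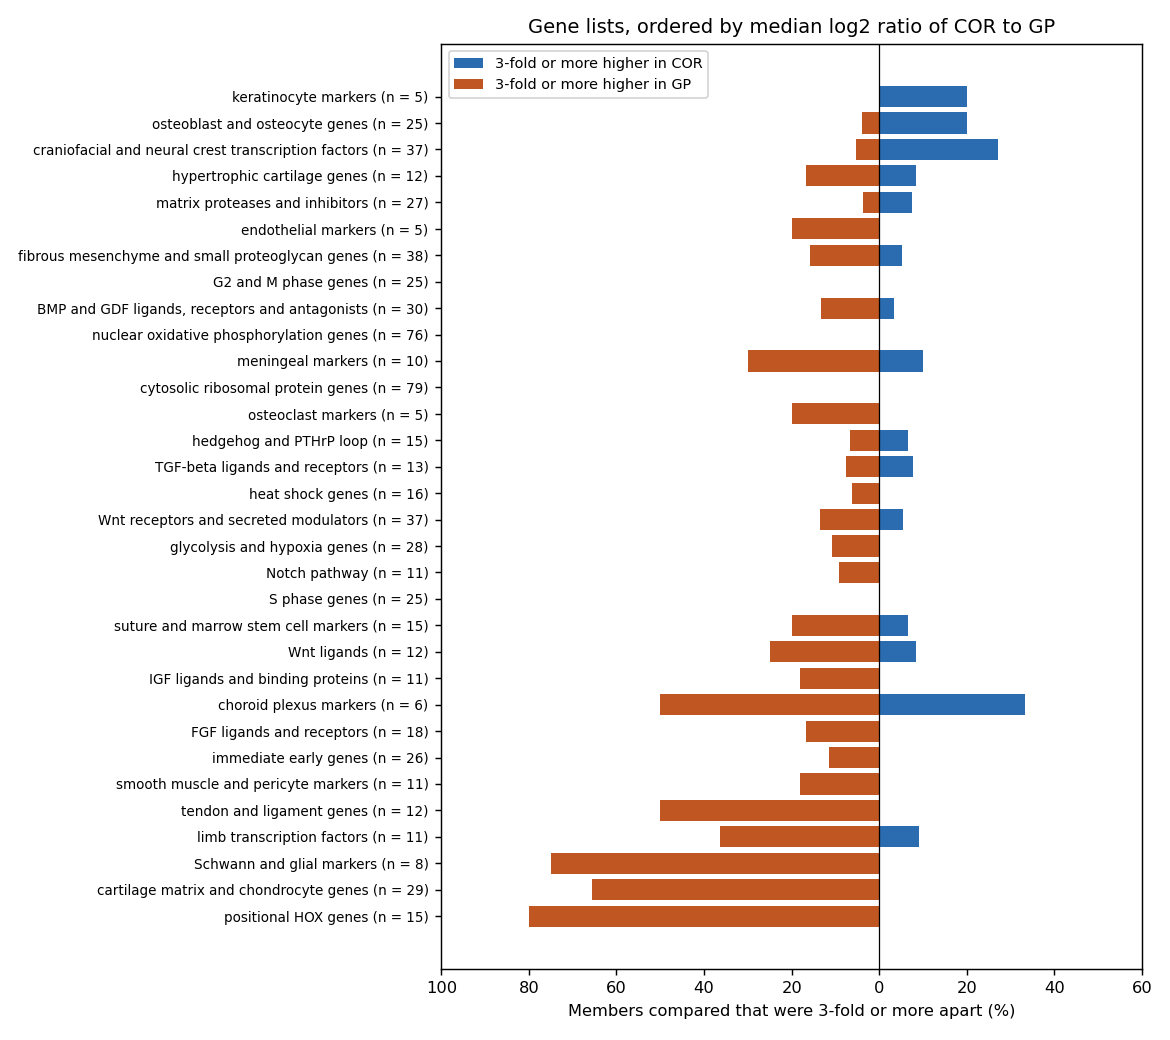
Each row is 1 gene list with at least 5 members compared, ordered by the median log2 ratio of COR to GP, and n is the number compared. Bars give the percentage of those members that were 3-fold or more higher in COR (blue, to the right) or in GP (orange, to the left). Over all 12206 genes, 1.20% were higher in COR and 3.18% in GP.

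The threshold divides a continuous range. Just inside 3-fold lay *Csgalnact1*, at 3.46 FPKM in COR cells and 12.4 in GP cells, with a log2 ratio of -1.59, and *Cpxm2*, at 19.8 in COR and 61.8 in GP, with -1.59. Just outside lay *Emilin2*, at 5.51 in COR and 1.17 in GP, with 1.58, and *Fam180a*, at 31.6 in COR and 96.6 in GP, with -1.58. The pairs on either side of the line thus hardly differed, and 1212 genes were apart by 2-fold or more.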

How the data were processed

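RNA was sequenced from 1 library each of COR, GP, PF, and SAG CD51+;CD200+ cells. Paired-end reads were aligned by the authors with STAR 2.5.1b to mm9, and Cuffdiff of Cufflinks 2.2.1 gave the deposited FPKM, 1 value per symbol and library. The way Cuffdiff scaled the libraries and the number of fragments are not given in the sources used here, so no counting interval is given. The spread between animals cannot be estimated with 1 library per tissue.

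Ratios were taken on log2(FPKM + 1) for symbols with FPKM of 1 or more in COR or GP, without *Sparc*, *Col1a1*, *Col1a2*, and *Col3a1*. A gene was counted as apart at 3-fold and as near within 1.5-fold. No test was made. Some members of the lists are counted but not reported here by name. In the 38 gene lists, members were counted and their median and summed FPKM taken. Genes were named from a wider pool. It held the 12 farthest in each direction (5 FPKM or more in the higher library, above 0 in both, no short RNA) and the sorting markers. From each list it took up to 8 members past 3-fold and the 6 of highest level. Also in it were the 10 genes of highest level and the 8 of largest separation at which COR and GP stood together. Those listed at 0 and those at the threshold completed it. Not all of this pool is reported here by name, and of the 10 genes of highest level only *Spp1* and *Postn* are. Other named genes were chosen after their values were seen, as were all members and gene lists with earlier results of these data known. Gene positions are from GENCODE vM1 (mm9).

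Alternatives were a pseudocount of 0.1, scaling to a median ratio of 0, quantile normalization, FPKM of 5 or more in either library, FPKM of 1 or more in both, no filter, and no short RNA genes or genes listed at 0. Added after the data were seen were removal of the median ratio within 20 bins of transcript GC content and protein-coding genes only. Python 3.11.15, numpy 2.4.6, pandas 2.3.3, scipy 1.17.1, and matplotlib 3.10.9 were used, and the steps were tested on simulated data.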

Additional observations from a re-analysis of the deposited data

How the results depend on the processing

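No paired analysis was possible because there is 1 library for each tissue, and no result here has a replicate check. With a pseudocount of 0.1, 1006 genes were 3-fold or more apart (275 higher in COR, 731 in GP), the root mean square log2 difference of the pair was 1.07 in place of 0.69, and 127 genes were higher and 216 lower in both COR and GP than in either other library. With FPKM of 1 or more in both libraries, 275 genes were apart (69 higher in COR, 206 in GP). With FPKM of 1 or more in all 4 libraries, 26 genes were higher and 17 lower in both COR and GP. The filter on both libraries reversed the median log2 ratio of the limb factors, to 1.08 over the 5 genes left, because genes near 0 in COR, such as *Pitx1*, drop out. The HOX median, -2.51 over 15 genes, was -5.34 with a pseudocount of 0.1, -3.98 over 7 genes with FPKM of 5 or more in either library, and -0.76 over 39 genes with no filter, and the limb factor median was then -0.20 over 19 genes. No HOX gene passes 1 FPKM in both libraries, so the filter on both gives no HOX value. The other settings gave 415 to 539 genes apart, with 24.4% to 30.6% of them higher in COR. The cartilage, craniofacial, hypertrophic, and osteoblast medians kept their direction under each setting run. The craniofacial median, 0.59 over 37 genes, fell to 0.29 over 26 genes with FPKM of 1 or more in both libraries. With no filter it was 0.085 over 54 genes. Of 1165 values of named genes under alternatives, 1077 moved by less than 1.5-fold and stayed on their side of 3-fold, and 0 reversed. Across 11098 genes, the log2 ratio and transcript GC content had a Spearman correlation of 0.15, and removing the median ratio by GC left 451 of these genes apart, against 460 before. Genes near 1 FPKM rest on few fragments.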
